A study of Homo sapiens with 6 samples.

Results

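Transcripts of the serine synthesis pathway and of the folate one-carbon enzymes that use serine were followed in T47D cells, a line of human breast cancer of the luminal type, in normoxia and in hypoxia. The enzymes were PHGDH, PSAT1 and PSPH of serine synthesis, SHMT1 and MTHFD1 of the cytosolic folate arm, and SHMT2, MTHFD2, MTHFD2L, MTHFD1L and ALDH1L2 of the mitochondrial folate arm. Genes were taken by exact symbol, and all 10 were found among the 27754 genes of the count files. RNA sequencing of 3 normoxia libraries (20% O2) was compared with that of 3 hypoxia libraries (0.5% O2 for 48 hours by their labels, while the text of the study gives another percentage). The cells of both conditions were grown in RPMI medium with serum, a medium that itself contains serine, glycine and folic acid. All libraries came from a single cell line, and their labels do not say whether they came from separate cultures, so p-values measure only the spread between these samples, although the study describes its data as independent experiments.

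The serine pathway branches from glycolysis, where PHGDH oxidizes phosphoglycerate, PSAT1 transfers an amino group from glutamate, and PSPH removes the phosphate to release serine. Serine hydroxymethyltransferase then splits serine into glycine and a one-carbon unit bound to tetrahydrofolate, with SHMT2 acting in mitochondria and SHMT1 in the cytosol. In many proliferating cells the mitochondrial enzymes run toward formate, which leaves the mitochondrion and is taken up by cytosolic MTHFD1 for the synthesis of purines and thymidylate. Serine synthesis genes and mitochondrial folate genes are known as targets of ATF4, a transcription factor of the amino acid and integrated stress responses.

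Reads assigned to genes numbered 32989104 to 40943424 in every library but hypoxia replicate 3, which held 89883409. The conditions were separated by the first principal component (83.6% of the variance), while the second (10%) held replicate 3 of either condition away from the remaining libraries. VIM, the mesenchymal filament gene vimentin, was at 12.8 and 10.95 counts-per-million (CPM) in replicate 3 of normoxia and hypoxia and at most 0.957 CPM in the other libraries. All 9 luminal epithelial markers examined were at 74.2 CPM or more in every library, and their summed level, most of it keratin, was 13960 to 18120 CPM in normoxia and 10190 to 13470 CPM in hypoxia. Of these markers 4 fell and 0 rose in edgeR's test, which called 29.1% of all tested genes lower and 30.4% higher. The falls were led by the hormone receptor genes PGR and ESR1, with log2-fold changes of -2.93 and -1.86 (edgeR adjusted p = 5.99e-05 and 2.06e-05). EPCAM, CDH1 and KRT19 had log2-fold changes of 0.027, 0.19 and -0.037 (edgeR adjusted p = 0.751, 0.174 and 0.855). KRT8 and KRT18, also not called, had log2-fold changes of -0.51 and -0.36 (edgeR adjusted p = 0.0684 and 0.137). With a term for replicate number added to the fit (the replicate block), 1 of the 9 markers was higher and 6 were lower. This fit called 5733 and 5511 of all 15657 tested genes higher and lower. The 14 mesenchymal, basal, endothelial and leukocyte markers summed to 87.0 to 111 CPM in normoxia and 87.1 to 119 CPM in hypoxia, of which COL1A1 alone held 83.9 to 95.1 and 76.9 to 99.1 CPM. In this list 5 genes had enough counts to be tested, 2 of these rose, and 0 of the 14 were absent from every library. The 2 that rose were CD68, with 1.00 to 1.67 CPM in normoxia and 6.11 to 7.98 CPM in hypoxia (log2-fold change 2.36, edgeR adjusted p = 1.63e-04), and PDGFRB, with 0 to 3 counts in normoxia and 14 to 28 counts in hypoxia (edgeR adjusted p = 0.00624). The part of these markers in the values below was not tested. Of 10 known hypoxia-induced genes, all 10 rose, with a median log2-fold change of 2.58, led by EGLN3 (5.51), CA9 (5.29) and NDRG1 (4.37). In bulk RNA, fewer cells of a type and less RNA per cell cannot be told apart.

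Both cytosolic folate enzymes fell in hypoxia, the mitochondrial folate arm had members that rose and a member that fell, and in serine synthesis 2 of 3 enzymes rose. All 10 enzymes had enough counts to be tested. By edgeR's quasi-likelihood test at an adjusted p of 0.05, 5 rose, 3 fell and 2 were not called. The same test called 30.4% of all 15657 tested genes higher and 29.1% lower, 59.5% in all, so that a call for a single enzyme was a common outcome in this comparison. ALDH1L2, MTHFD1L, PSAT1, PHGDH and MTHFD2 rose, while MTHFD1, MTHFD2L and SHMT1 fell. The median log2-fold change (hypoxia over normoxia) was 0.27 over the 10 enzymes and 0.028 over all tested genes. Without both libraries of replicate 3, again 5 of the enzymes were called higher and 3 lower, beside 5751 and 5506 of 15803 tested genes. Without both libraries of replicate 1 the counts were 2 and 3, beside 2648 and 2191 of 15713 tested genes.

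**Figure D1:**
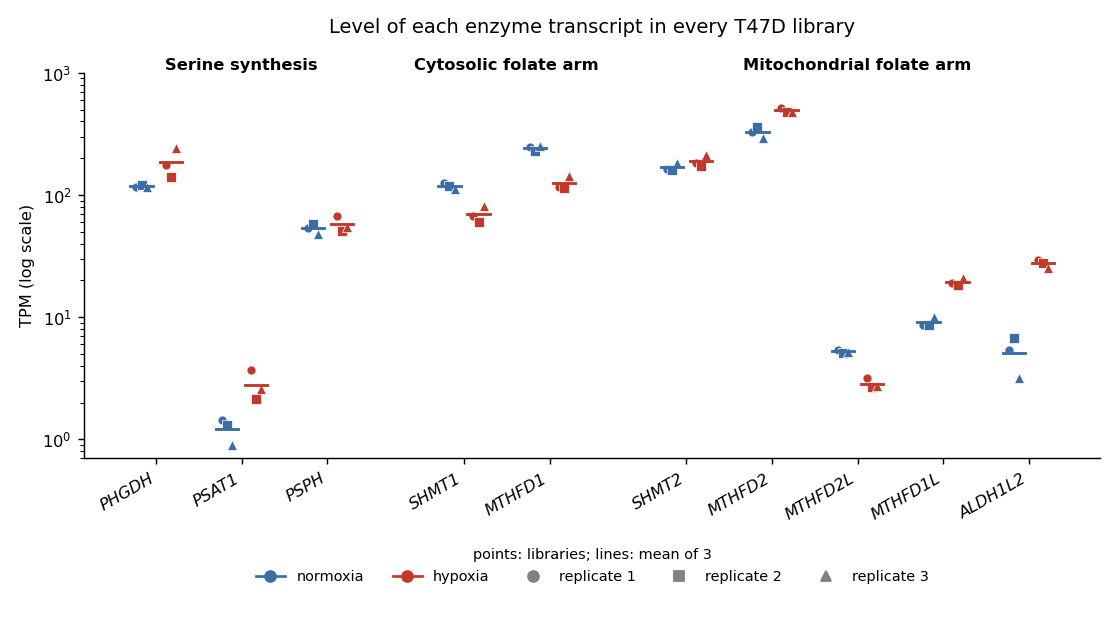
Level of each enzyme transcript as transcripts-per-million (TPM, log axis) in every library, with normoxia in blue, hypoxia in red, the replicate number as the marker shape and the mean of 3 libraries as a line. MTHFD2 is the highest in both conditions (mean TPM 327 and 494) and PSAT1 the lowest in normoxia (1.22). The libraries of the 2 conditions overlap for PSPH and SHMT2 and are apart for every other enzyme.

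On a scale corrected for gene length (TPM), the levels of these transcripts spanned a wide range in normoxia. MTHFD2, the mitochondrial dehydrogenase and cyclohydrolase, had the highest level, with 327 ± 32.97 TPM (mean ± SD, n = 3 for this and all following means). It was followed by cytosolic MTHFD1 at 242 ± 11.4 TPM and by SHMT2 at 169 ± 12.5 TPM, and the 3 libraries of each of these neighbours did not overlap. SHMT1 and PHGDH came next with overlapping ranges, at 119 ± 7.21 and 118 ± 2.98 TPM, and were followed by PSPH at 53.3 ± 4.73 TPM. The remaining transcripts were scarcer, with MTHFD1L at 9.08 ± 0.767 TPM, then MTHFD2L at 5.25 ± 0.142 TPM and ALDH1L2 at 5.14 ± 1.83 TPM, which overlapped. PSAT1 was the lowest at 1.22 ± 0.281 TPM, although its neighbours in the pathway, PHGDH and PSPH, were among the moderately abundant transcripts.

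In hypoxia the order changed below MTHFD2, which was again highest at 494 ± 22.8 TPM. MTHFD1 moved from the second to the fourth place, at 125 ± 16.2 TPM, below SHMT2 (191 ± 19.8 TPM) and PHGDH (187 ± 51.4 TPM), although the ranges of SHMT2 and PHGDH overlapped each other and the range of PHGDH overlapped that of MTHFD1. SHMT1 (69.6 ± 10.2 TPM) and PSPH (57.6 ± 8.66 TPM) also overlapped. ALDH1L2 moved above MTHFD1L, at 27.6 ± 1.93 against 19.6 ± 1.28 TPM, with no overlap. This order depends on the exonic lengths used, 7539 bases for ALDH1L2 and 5882 bases for MTHFD1L. MTHFD2L (2.86 ± 0.265 TPM) and PSAT1 (2.81 ± 0.822 TPM) were the lowest and overlapped.

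In the serine synthesis pathway, PHGDH and PSAT1 rose and PSPH did not pass the test. PHGDH, which catalyses the committed step, lies at 120254419 to 120286849 of chromosome 1 on the plus strand (hg19, as all gene positions here), with 12 exon blocks. PHGDH was at 95.3, 97.6 and 99.9 CPM in normoxia replicates 1, 2 and 3, and at 132, 105 and 191 CPM in hypoxia replicates 1, 2 and 3. All hypoxia libraries were above all normoxia libraries, with a narrow normoxia group and a wide hypoxia group in which replicate 3 was highest. Its log2-fold change was 0.55 (standard error 0.193, 1.47-fold, edgeR adjusted p = 0.0383, and 0.00884 when the replicate block was added). The size rested on hypoxia replicate 3, since without that library the log2-fold change was 0.28 (edgeR adjusted p = 0.0488). Leaving out any normoxia library or hypoxia replicate 1 gave log2-fold changes of 0.52 to 0.60 with edgeR adjusted p of 0.0598 to 0.0967.

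PSAT1, the aminotransferase of the second step, lies at 80911991 to 80945009 of chromosome 9 on the plus strand, with 9 exon blocks. Its raw counts were 52, 44 and 27 in the normoxia libraries and 126, 65 and 208 in the hypoxia libraries, the lowest of the 10 enzymes. This corresponded to 1.32, 1.18 and 0.872 CPM in normoxia and 3.11, 1.78 and 2.28 CPM in hypoxia, without overlap. The transcript rose by 1.08 on the log2 scale (standard error 0.276, 2.11-fold, edgeR adjusted p = 0.0109), in 3 of 3 same-numbered pairs. Without both libraries of replicate 1, the log2-fold change was 0.98 with an edgeR adjusted p of 0.0851. The pseudogene PSAT1P3 matches 50.5% of the PSAT1 transcript at 95.2% identity and was not counted in the files, so that reads shared with it are uncertain.

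PSPH, the phosphatase that releases serine, lies at 56078744 to 56119268 of chromosome 7 on the minus strand, with 8 exon blocks. It was at 46.3, 48.6 and 43.6 CPM in normoxia and 52.7, 39.6 and 45.4 CPM in hypoxia. The groups overlapped, and hypoxia replicates 1 and 2 held the highest and the lowest value. The log2-fold change was -0.0086 (95% confidence interval -0.27 to 0.26, edgeR adjusted p = 0.953), and its sign turned with upper-quartile factors (0.15), which also moved the median of all genes to 0.19. Across the same-numbered pairs, the difference was positive in pairs 1 and 3 and negative in pair 2.

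In the cytosolic folate arm both enzymes fell. SHMT1, the cytosolic serine hydroxymethyltransferase, lies at 18231174 to 18266877 of chromosome 17 on the minus strand, with 12 exon blocks. It was at 130, 121 and 122 CPM in normoxia and at 63.8, 57.0 and 80.7 CPM in hypoxia. The groups were well apart, with hypoxia replicate 3 nearest to normoxia. SHMT1 fell by 0.89 on the log2 scale (standard error 0.127, 1.85-fold lower, edgeR adjusted p = 8.02e-04), in 3 of 3 pairs. Only 7.13% of all tested genes had a lower log2-fold change.

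MTHFD1 is the cytosolic enzyme that interconverts formate, formyl-, methenyl- and methylenetetrahydrofolate. It lies at 64854759 to 64926725 of chromosome 14 on the plus strand, with 28 exon blocks. MTHFD1 was at 346, 315 and 368 CPM in normoxia and at 149, 146 and 194 CPM in hypoxia. Every hypoxia library was below every normoxia library. The transcript fell by 1.07 on the log2 scale (standard error 0.125, 2.11-fold lower, edgeR adjusted p = 3.32e-04), in 3 of 3 pairs, and 4.14% of all tested genes had a lower log2-fold change. Exons of SHMT1 share 197 bases with SMCR8 and those of MTHFD1 share 178 bases with ZBTB25, in both cases on the opposite strand, which was 7.72% and 5.16% of their exonic length. SMCR8 had 3909 to 5729 counts in normoxia and 5366 to 11798 in hypoxia, and was above SHMT1 (2087 to 7374 counts) in every library. ZBTB25 had 379 to 557 counts in normoxia and 865 to 1776 in hypoxia, against 5329 or more counts of MTHFD1. The part of these shared bases in the SHMT1 and MTHFD1 values was not tested.

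**Figure D2:**
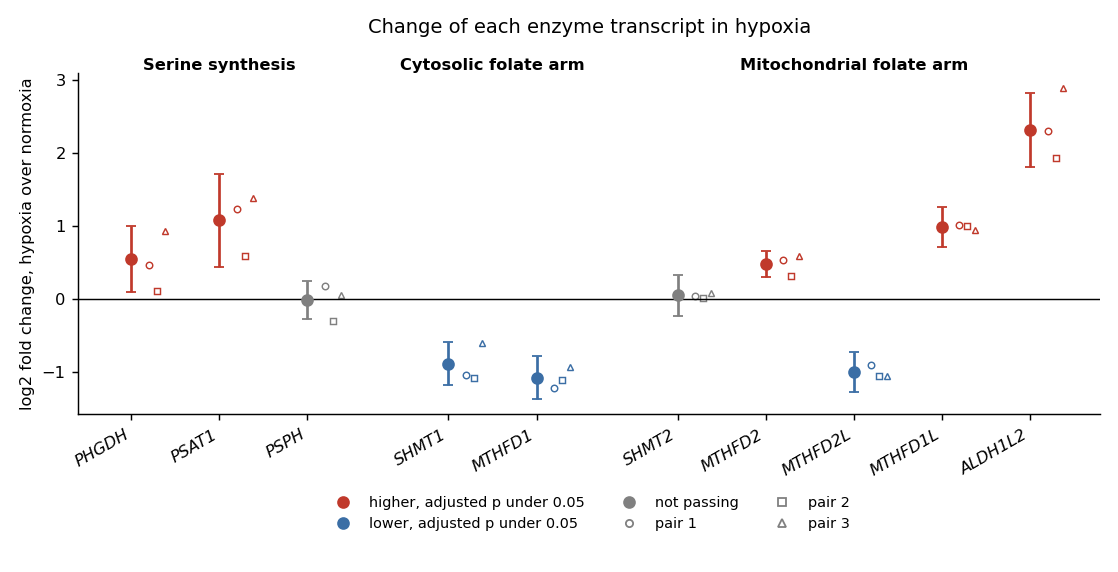
Log2-fold change of each enzyme in hypoxia over normoxia, with filled points and bars for the edgeR estimate and its 95% confidence interval, and small open markers for the same-numbered pairs. Both cytosolic enzymes lie below 0 (-0.89 and -1.07), the mitochondrial enzymes run from -0.99 for MTHFD2L to 2.31 for ALDH1L2, and the intervals of PSPH and SHMT2 include 0.

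The mitochondrial folate arm was not uniform. MTHFD2, MTHFD1L and ALDH1L2 rose, MTHFD2L fell, and SHMT2 did not pass the test. SHMT2, the mitochondrial serine hydroxymethyltransferase, lies at 57623356 to 57628718 of chromosome 12 on the plus strand, with 14 exon blocks. It was at 190, 182 and 224 CPM in normoxia and at 195, 184 and 238 CPM in hypoxia. The groups overlapped almost fully, and replicate 3 was the highest in each. The log2-fold change was 0.053 (95% confidence interval -0.23 to 0.33, edgeR adjusted p = 0.726, and 0.403 when the replicate block was added). Its exons share 33 bases with NDUFA4L2 on the opposite strand, a gene that had 9 to 21 counts in normoxia and 112 to 353 counts in hypoxia, against 6739 or more counts of SHMT2 in any library. The part of these shared bases in the SHMT2 value was not tested.

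MTHFD2 oxidizes methylenetetrahydrofolate and opens the methenyl ring in mitochondria, and is known for high levels in tumors and embryonic tissue and low levels in most adult tissue. It lies at 74425690 to 74442424 of chromosome 2 on the plus strand, with 9 exon blocks. MTHFD2 was at 304, 326 and 285 CPM in normoxia and at 440, 407 and 430 CPM in hypoxia. The groups were apart, with a spread of similar size in each. MTHFD2 rose by 0.48 on the log2 scale (standard error 0.079, 1.40-fold, edgeR adjusted p = 0.00146), in 3 of 3 pairs. Without both libraries of replicate 1, the log2-fold change was 0.45 with an edgeR adjusted p of 0.053.

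MTHFD2L, the isozyme of MTHFD2 with the same reactions, changed the other way. It lies at 74988990 to 75168814 of chromosome 4 on the plus strand, with 14 exon blocks. MTHFD2L was at 12.8, 11.99 and 12.99 CPM in normoxia and at 6.87, 5.80 and 6.29 CPM in hypoxia. Both groups were narrow and did not overlap. MTHFD2L fell by 0.99 on the log2 scale (standard error 0.119, 1.99-fold lower, edgeR adjusted p = 3.63e-04). Per length, MTHFD2L was far below MTHFD2 in both conditions, at 5.25 against 327 TPM in normoxia and 2.86 against 494 TPM in hypoxia.

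MTHFD1L, the mitochondrial formyltetrahydrofolate synthetase that releases formate, lies at 151186815 to 151423023 of chromosome 6 on the plus strand, with 35 exon blocks. It was at 20.6, 20.1 and 25.0 CPM in normoxia and at 41.7, 40.1 and 48.3 CPM in hypoxia. The transcript rose by 0.99 on the log2 scale (standard error 0.118, 1.98-fold, edgeR adjusted p = 3.61e-04), and replicate 3 was the highest in each condition. About 7.48% of its transcript matches copies on chromosome 9 at 96.2% identity that were not counted in the files.

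ALDH1L2, the mitochondrial formyltetrahydrofolate dehydrogenase that oxidizes the one-carbon unit to carbon dioxide and yields NADPH, had the largest change of the 10 enzymes. It lies at 105413562 to 105478341 of chromosome 12 on the minus strand, with 23 exon blocks. ALDH1L2 was at 16.6, 20.4 and 10.2 CPM in normoxia and at 81.7, 77.7 and 75.3 CPM in hypoxia. The spread was wider in normoxia, where replicate 3 was lowest, while the hypoxia libraries were close to each other. ALDH1L2 rose by 2.31 on the log2 scale (standard error 0.22, 4.96-fold, edgeR adjusted p = 1.57e-04), and 95.3% of all tested genes had a lower log2-fold change. Its cytosolic counterpart ALDH1L1 was nearly undetected, with 2, 5 and 3 counts in normoxia and 10, 14 and 24 counts in hypoxia, too few to be tested.

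To compare the folate arms within a library, the counts per base of exon of a mitochondrial enzyme were divided by those of its cytosolic counterpart, a ratio that does not depend on the scaling between libraries. SHMT2 over SHMT1 was 1.30, 1.35 and 1.64 in normoxia and 2.73, 2.88 and 2.64 in hypoxia. The ratio was therefore 1.93-fold higher in hypoxia, with no overlap (exact permutation test, two-sided, p = 0.1, the smallest p that 3 against 3 libraries allow). As SHMT2 did not pass its own test, the numerator differed by 0.053 and the denominator by -0.89 on the log2 scale. MTHFD2 over MTHFD1 was 1.33, 1.56 and 1.17 in normoxia and 4.47, 4.21 and 3.34 in hypoxia, or 2.96-fold higher (exact permutation p = 0.1).

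MTHFD1L over MTHFD1 compares the mitochondrial and cytosolic formyltetrahydrofolate synthetases. This ratio was 0.0350, 0.0375 and 0.0398 in normoxia and 0.164, 0.162 and 0.146 in hypoxia. It was 4.2-fold higher in hypoxia (exact permutation p = 0.1), and all values were below 1. With the libraries paired by number, each of these 3 ratios was higher in hypoxia in 3 of 3 pairs (exact sign-flip permutation p = 0.25, the smallest that 3 pairs allow). ALDH1L2 over ALDH1L1 rested on 2 to 5 counts of ALDH1L1 in normoxia, its groups overlapped, and the difference in mean log2 ratio was 0.80 (exact permutation p = 0.2).

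**Figure D3:**
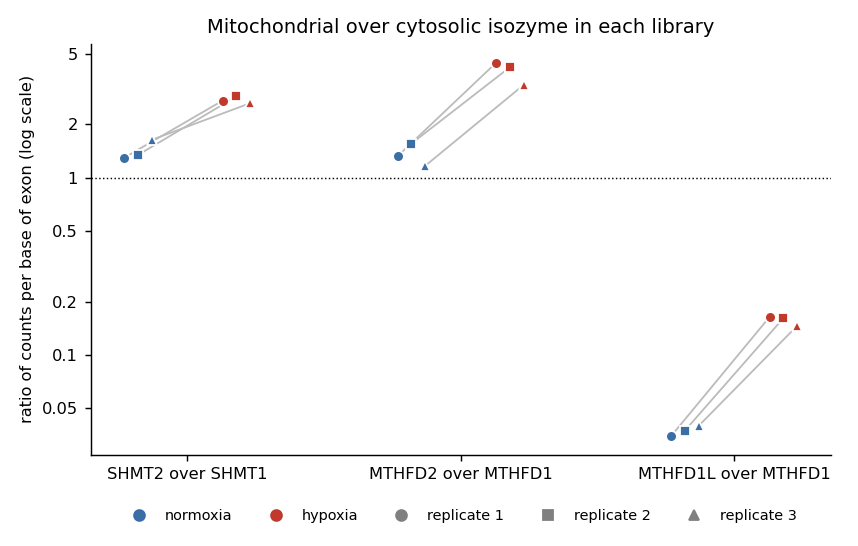
Ratio of counts per base of exon (log axis) of a mitochondrial enzyme over its cytosolic counterpart in each library, with normoxia in blue, hypoxia in red, and lines joining libraries of the same replicate number. SHMT2 over SHMT1, MTHFD2 over MTHFD1 and MTHFD1L over MTHFD1 are plotted and are higher in every hypoxia library than in every normoxia library, and MTHFD1L over MTHFD1 stays below 1 throughout, at most 0.164.

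Summed by arm, the mitochondrial enzymes held 513, 538 and 494 TPM in normoxia and 757, 706 and 742 TPM in hypoxia. The sums of the cytosolic enzymes were 374, 348 and 362 TPM in normoxia and 184, 175 and 224 TPM in hypoxia. Of all transcripts of both arms, the mitochondrial share was 57.7% to 60.7% in normoxia and 76.8% to 80.4% in hypoxia. MTHFD2 held most of the mitochondrial sum in both conditions and MTHFD1 most of the cytosolic sum. Serine synthesis summed to 172, 181 and 165 TPM in normoxia and 248, 194 and 300 TPM in hypoxia, nearly all of it PHGDH and PSPH.

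RefSeq promoter windows of GRCh38.p14, each from 250 bases before to 50 bases after a gene start, were at hand for PHGDH, PSAT1, SHMT1, MTHFD1, MTHFD2, MTHFD2L and MTHFD1L. The motif TGATGNAA, the core of the C/EBP-ATF response element, was searched on both strands and was found in 1 of these 7 windows, that of MTHFD1L, and in 3.67% of 27305 promoters. The hypoxia response element core, as ACGTG or GCGTG on either strand, was in 5 of the 7 windows and in 48.4% of all promoters, and PHGDH and SHMT1 held neither. The E-box CACGTG, which contains ACGTG on both strands, was in 2 of the 7 windows and in 7.43% of all promoters. The following stretches are printed in the direction of transcription with the motif in capitals, to show the matches to the C/EBP-ATF core and the E-box and a match to GCGTG in the most abundant enzyme. They are matches of letters and not shown to be bound sites.
MTHFD1L, C/EBP-ATF core, chr6:150866346-150866375, plus strand: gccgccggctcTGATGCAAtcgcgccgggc
MTHFD1L, E-box, chr6:150866321-150866350, plus strand: acgcccggctcCACGTGcgcagccggccgc
MTHFD1, E-box, chr14:64388327-64388356, plus strand: cagtccctaagCACGTGggttgggttgtcc
MTHFD2, hypoxia response element core, chr2:74198581-74198610, plus strand: gcagtataaccGCGTGgcccgcgcgcgcgc

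Other genes that take up and use folate included members that rose and members that fell. Of 16 other tested folate enzymes and carriers, 2 rose and 5 fell, beside 30.4% and 29.1% of all tested genes, with a median log2-fold change of -0.082. With the replicate block 2 rose and 7 fell, beside 5733 and 5511 of all 15657 tested genes. The counts were 1 and 2 without both libraries of replicate 1, beside 2648 and 2191 of the 15713 genes then tested. Without hypoxia replicate 2, 1 rose, beside 3933 of 15854 tested genes. TYMS, the thymidylate synthase that consumes methylenetetrahydrofolate, was at 94.6, 85.8 and 97.5 CPM in normoxia and 33.6, 29.99 and 40.1 CPM in hypoxia. TYMS fell by 1.42 on the log2 scale (standard error 0.119, edgeR adjusted p = 9.78e-05). The reduced folate carrier SLC19A1 and the mitochondrial folate carrier SLC25A32 also fell, with log2-fold changes of -0.88 and -0.39 (edgeR adjusted p = 0.0108 and 0.0116). MTR, the methionine synthase that uses methyltetrahydrofolate, rose from 82.6 ± 6.20 to 104 ± 10.1 CPM (log2-fold change 0.33, edgeR adjusted p = 0.0192).

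The glycine cleavage system, which yields a one-carbon unit from glycine in mitochondria, was split. Together with the choline-derived pathway, 8 of 12 genes were tested, 2 rose and 4 fell, beside 30.4% and 29.1% of all tested genes. The number that rose was 1 without both libraries of replicate 1, beside 2648 of the 15713 genes then tested. It was 4 of 10 genes then tested without hypoxia replicate 3 or any normoxia library, beside 3961 to 4991 of all tested genes. BHMT and BHMT2 were at 0 in every library, where 3 counts correspond to 0.0334 to 0.0909 CPM. GLDC, the decarboxylase of the complex, fell by 0.69 on the log2 scale (edgeR adjusted p = 0.0111), from 37.5 ± 9.65 to 23.3 ± 1.02 CPM. GCSH, its carrier protein, fell by 0.73 and DLD, its dehydrogenase, by 1.02 (edgeR adjusted p = 9.11e-04 and 9.78e-05). AMT, its aminomethyltransferase, rose from 11.7 ± 3.04 to 26.2 ± 1.06 CPM (log2-fold change 1.16, edgeR adjusted p = 9.23e-04). Of the choline-derived branch, choline dehydrogenase (CHDH) fell by 1.07 and sarcosine dehydrogenase (SARDH) rose by 1.76 on the log2 scale (edgeR adjusted p = 1.53e-04 and 0.00749), the latter from 0.983 ± 0.555 CPM.

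Of 10 serine and glycine transporters, 5 rose and 2 fell, beside 30.4% and 29.1% of all tested genes. With the replicate block 5 rose and 4 fell, beside 5733 and 5511 of all 15657 tested genes. Without both libraries of replicate 1, 5 rose and 1 fell, beside 2648 and 2191 of the 15713 genes then tested. SFXN1, the mitochondrial serine transporter, fell from 96.5 ± 5.03 to 69.4 ± 3.27 CPM (log2-fold change -0.47, edgeR adjusted p = 0.00145). Its relatives moved apart, as SFXN2 was at 200, 197 and 132 CPM in normoxia and 30.1, 29.6 and 27.8 CPM in hypoxia, while SFXN3 rose from 34.4 ± 5.38 to 77.7 ± 3.40 CPM. The log2-fold changes were -2.60 for SFXN2 and 1.18 for SFXN3 (edgeR adjusted p = 4.03e-05 and 1.94e-04). At the plasma membrane, the glycine transporter SLC6A9 and the neutral amino acid transporter SLC1A4 rose by 1.25 and 0.74 on the log2 scale (edgeR adjusted p = 0.00148 and 0.00141).

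Among the users of one-carbon units, 0 of 12 tested genes of de novo purine synthesis rose and 9 fell in edgeR's quasi-likelihood test, with 11 lower under the replicate block. With upper-quartile factors 5 of them were lower, and without both libraries of replicate 1, 3 were lower. Of all tested genes, 30.4% were called higher and 29.1% (4551) lower by the quasi-likelihood test without the block. All genes called lower numbered 5511 under the block, 3285 with upper-quartile factors and 2191 without both libraries of replicate 1. ATIC, which carries out a formyltetrahydrofolate-dependent step, was at 242, 235 and 245 CPM in normoxia and 107, 107 and 118 CPM in hypoxia (log2-fold change -1.12, edgeR adjusted p = 4.76e-05). PFAS and GMPS fell by 0.98 and 0.80 on the log2 scale (edgeR adjusted p = 0.00517 and 3.69e-04). Of 9 genes of the methionine cycle and transsulfuration, 2 rose and 5 fell, beside the same 30.4% and 29.1% of all tested genes. The counts were 1 and 3 without both libraries of replicate 1, beside 2648 and 2191 of the 15713 genes then tested. With normoxia replicate 2 or 3 or hypoxia replicate 1 or 3 left out, 1 rose, beside 3910 to 4991 of all tested genes. CBS, which joins serine and homocysteine, rose from 3.23 ± 0.190 to 10.1 ± 2.64 CPM (log2-fold change 1.66, edgeR adjusted p = 4.27e-04), while CTH, the next enzyme, fell from 4.01 ± 0.392 to 2.26 ± 0.287 CPM (log2-fold change -0.82, edgeR adjusted p = 0.00558). Serine racemase (SRR) and AHCYL1, a relative of adenosylhomocysteinase, fell by 0.85 and 0.62 on the log2 scale (edgeR adjusted p = 5.45e-04 and 0.00115).

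**Figure D4:**
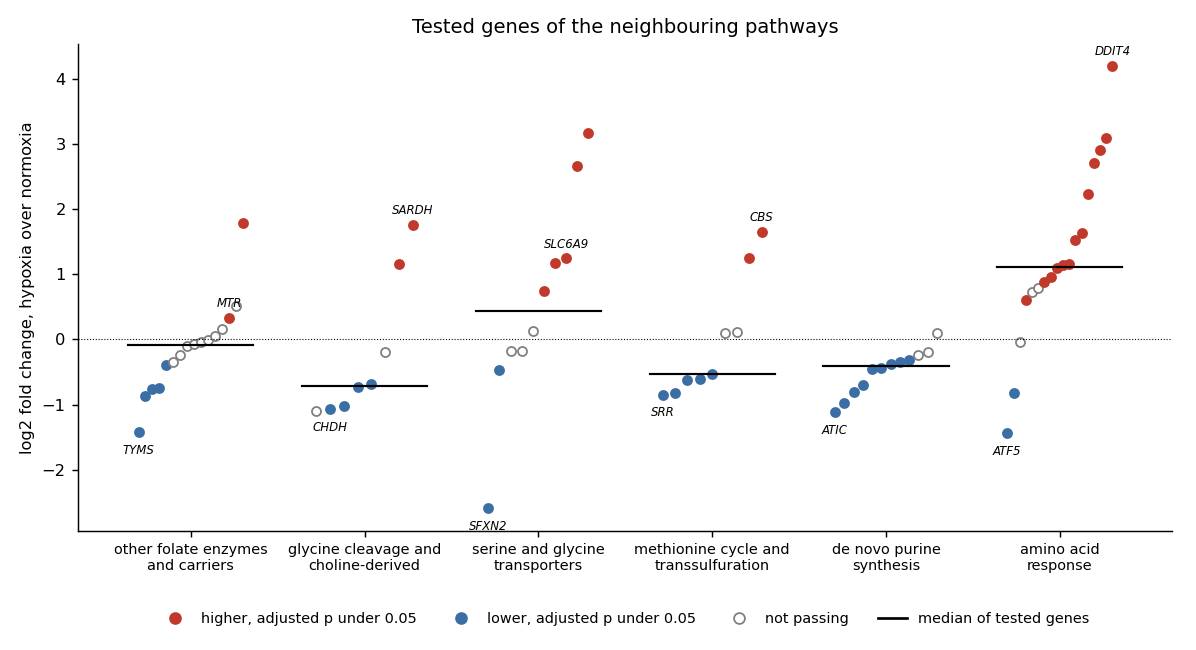
Log2-fold change in hypoxia over normoxia of every tested gene of 6 neighbouring gene lists, with red for higher, blue for lower, open circles for genes not past an adjusted p of 0.05, and a black line at the median of the list. The list of amino acid response genes has its median at 1.12 and the list of de novo purine synthesis at -0.41, with 0 of its genes called higher.

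Most genes of the amino acid and integrated stress responses rose in hypoxia. Of 18 tested genes of this list, 13 rose and 2 fell, beside 30.4% and 29.1% of all tested genes. Without both libraries of replicate 1 the counts were 13 and 1, beside 2648 and 2191 of the 15713 genes then tested. The median log2-fold change was 1.12 against 0.028 over all tested genes. ATF4 was at 205, 221 and 240 CPM in normoxia and 363, 336 and 310 CPM in hypoxia, which did not overlap. Its log2-fold change was 0.60 (standard error 0.0915, edgeR adjusted p = 0.00105). DDIT4, an inhibitor of mTORC1, rose from 15.9 ± 1.76 to 293 ± 24.6 CPM (log2-fold change 4.2, edgeR adjusted p = 4.2e-06). VLDLR, a lipoprotein receptor, and DDIT3, the transcription factor CHOP, rose by 3.09 and 2.71 on the log2 scale (edgeR adjusted p = 1.12e-04 and 7.04e-05). ASNS, asparagine synthetase, was also at low counts, with 12, 8 and 10 counts in normoxia and 74, 73 and 227 counts in hypoxia, and rose by 2.91 on the log2 scale (edgeR adjusted p = 1.54e-04). ATF5, a relative of ATF4, and CTH, which is also in the transsulfuration list, fell, the former by 1.44 on the log2 scale (edgeR adjusted p = 0.0012).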

How the data were processed

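Libraries of T47D cells in normoxia and hypoxia were grouped by their labels. The authors deposited raw counts per RefSeq gene, made per the labels with FastQC 0.11.5, Skewer, STAR 2.5.2a (hg19) and featureCounts 1.5.1, while whether counting used strand, and what became of multimapping reads, is not given in the sources used here. Unstranded counting would mix genes that overlap on opposite strands.

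The members and lists were chosen with earlier results of these data known. Counts were tested with edgeR 4.0.16 in R 4.3.3 (filterByExpr with a minimum count of 10 and total of 15, TMM, quasi-likelihood test with condition as the only term, Benjamini-Hochberg over 15657 genes at 0.05). CPM values are TMM-normalized. TPM used the union of exons of the count files, and the order of genes by TPM depends on these lengths. Ratios had 0.5 counts added to each gene. Same-numbered libraries shared their deviations from the condition means (correlations across genes of 0.338, 0.421 and 0.576), so a replicate block was also fitted where stated. Named genes were the 10 members, of each list the 3 largest rises and falls past the threshold in all pairs and averaging 100 counts or more, and ALDH1L1, TYMS, SLC25A32, SFXN1, GLDC, ATF4 and ASNS, and some genes that the rule names are not reported here. BHMT, BHMT2, SMCR8, ZBTB25, NDUFA4L2, VIM, COL1A1, PDGFRB, EPCAM, CDH1, KRT19, KRT8 and KRT18 were outside that rule and were chosen after their values were seen. Near copies were sought with BLAST+ 2.17.0 at 95% identity over 100 bases. Alternatives were DESeq2 1.42.0, edgeR's exact test, other scaling factors, no filter, and left-out libraries. The quasi-likelihood test without the block was tried on simulated counts. These had no deviations shared between same-numbered libraries, so the trial does not cover that feature of the data.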

Additional observations from a re-analysis of the deposited data

How the results depend on the processing

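SHMT1, MTHFD1, MTHFD2L, MTHFD1L and ALDH1L2 kept their direction and passed an adjusted p of 0.05 under all 16 alternatives run for a single enzyme, with log2-fold changes of -1.05 to -0.73, -1.22 to -0.92, -1.06 to -0.84, 0.90 to 1.15 and 2.08 to 2.54. MTHFD2 and PSAT1 were not called in 1 alternative each (without replicate 1) and PHGDH in 5, all of which left out libraries. The replicate block, with which 5 enzymes were higher and 3 lower, beside 5733 and 5511 of all 15657 tested genes, changed no call of an enzyme. PSPH changed sign with upper-quartile factors (0.15), library size alone (0.11), and without normoxia replicate 2 (0.012), hypoxia replicate 2 (0.084) or replicate 2 (0.12), with a range of -0.12 to 0.12 when libraries were left out. SHMT2 changed sign without normoxia replicate 2 (-0.025) and without hypoxia replicate 3 (-0.070). Its range was -0.070 to 0.14 when libraries were left out and -0.070 to 0.21 over all 16 alternatives. When libraries were left out, the enzymes called higher numbered 2 to 5 and those called lower 3 to 3, against 2648 to 5751 and 2191 to 5506 of all genes, the lowest counts being those without replicate 1, and the cause was not tested. With a change of 1 or more on the log2 scale also required, 2 enzymes were higher and 1 lower, and 2373 and 768 of all genes. The log2 ratio difference of ALDH1L2 over ALDH1L1 was 1.59 with 5 counts added and 0.39 to 1.21 with libraries left out, and that of MTHFD1L over MTHFD1 was 1.99 to 2.17. Upper-quartile factors put the median of all genes at 0.19, library size alone at 0.14 and testing all genes with at least 1 count at 0.18, and with upper-quartile factors 64.5% of called genes were higher, against 51.1%. Depth limits what can be said of genes with few counts, such as ALDH1L1.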
